A study of Drosophila melanogaster with 3 samples.

Results

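The peaks described here are 2869 regions called for GFP-tagged Cycle that fell below the authors' reproducibility threshold but were found in every replicate. Cycle (Cyc) is a bHLH-PAS transcription factor of Drosophila melanogaster. Chromatin immunoprecipitation with sequencing (ChIP-seq) was done with an antibody against GFP on whole white prepupae, animals at the onset of metamorphosis, of a transgenic line that stably carries Cyc with GFP at its C terminus. Males and females were pooled, and the labels give the age as unknown. The 3 biological replicates form 1 group, with no untagged or untreated group among them. Because whole animals were used, a weak peak cannot be assigned to a tissue, and a strong signal in few cells cannot be told apart from a weak one in many. The pooled list held 29484 regions on the dm6 assembly, of which 7227 passed a threshold on the irreproducible discovery rate (IDR), a measure of how well ranked peaks agree between replicates. These are called thresholded below. Another 1163 overlapped a thresholded peak, and 21094 lay below the threshold and overlapped none. The members were selected on these peak lists: they are the 2869 of these 21094 (13.6%) whose summit, the position of highest signal, lay within 100 bp of a summit in the list of replicate 1, of replicate 2 and of replicate 3. The measured values that chose them are thus the pooled threshold and the summit positions of the replicates. The remaining 18225 are called the other sub-threshold peaks. By the same distance rule, 5943 of the 7227 thresholded peaks (82.2%) had a summit in all 3 replicates.

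Cyc pairs with Clock (Clk), and the pair activates the clock genes period (per) and timeless (tim) through the E-box CACGTG. The products of those genes return to the nucleus and inhibit the pair, and vrille (vri), Pdp1 and clockwork orange (cwo) form further loops. Peak callers list many regions beyond those that pass a threshold, and such lists mix weak binding, regions of open chromatin and background. Presence in every replicate is a selection on the same measurements, so it describes the members and does not test them.

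Sequences are given for the members whose E-box CACGTG lay nearest to the summit, since CACGTG is the site known for Clk and Cyc. Each line is the 101 bases around a summit, read 5′ to 3′ on the plus strand of the dm6 arms (NCBI RefSeq Release 6 sequence), and the capitals mark CACGTG. The first has its nearest start at aralar1, a mitochondrial aspartate and glutamate carrier. The next lies by Tbh, whose enzyme makes octopamine from tyramine. Dif encodes an NF-kappaB factor of the Toll pathway, SrpRbeta a subunit of the signal recognition particle receptor, and Tet an enzyme of the TET dioxygenase family.
aralar1, chr3R:30454514-30454614: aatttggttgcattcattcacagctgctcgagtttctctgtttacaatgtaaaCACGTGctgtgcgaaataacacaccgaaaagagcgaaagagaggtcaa
Tbh, chrX:7995336-7995436: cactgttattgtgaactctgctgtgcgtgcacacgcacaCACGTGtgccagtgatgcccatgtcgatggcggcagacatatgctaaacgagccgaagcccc
Dif, chr2L:17427349-17427449: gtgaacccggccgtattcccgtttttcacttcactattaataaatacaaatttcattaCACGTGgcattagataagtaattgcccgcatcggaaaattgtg
SrpRbeta, chr3L:8712211-8712311: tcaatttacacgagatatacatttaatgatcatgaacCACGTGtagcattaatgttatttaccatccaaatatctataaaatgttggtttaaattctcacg
Tet, chr3L:2852987-2853087: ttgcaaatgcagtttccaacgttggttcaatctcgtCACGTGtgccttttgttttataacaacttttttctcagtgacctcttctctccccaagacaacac

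The distance between the summit and the middle of CACGTG was 5.5 bp at aralar1, 8.5 bp at Tbh, 10.5 bp at Dif, 10.5 bp at SrpRbeta and 11.5 bp at Tet. The member at aralar1 had signals of 20.1, 34.6 and 45.9 in replicates 1, 2 and 3, and the one at Tbh had 15.1, 38.5 and 44.7. At Dif the signals were 20.2, 14.2 and 30.3. Each of these was highest in replicate 3, on scales that belong to each replicate's own list. The member at SrpRbeta had 35.4, 10.9 and 12.4, and the intronic member of Tet had 31.4, 15.8 and 17.2, both highest in replicate 1. The first 3 lay within 1 kb of a start, at 784, 311 and 800 bp, whereas the SrpRbeta member lay 7964 bp away in intergenic sequence.

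A second hexamer, GTGCAC, is shown because its share differed between members and other sub-threshold peaks. It is a palindrome like CACGTG, and here the windows are 261 bases long because GTGCAC lay mostly to the side of the summit. These 4 members are the strongest ones on the chromosome arms shown with GTGCAC at least 60 bp from the summit, within the 100 bp searched on each side, and they were chosen after their values were seen. The capitals mark GTGCAC. IP3K2 encodes an inositol trisphosphate kinase and Glut1 a glucose transporter. The member with its nearest start at hog lies in an intron of NetB, a netrin guidance cue, and the one nearest to CG32320 lies in an intron of Ptp61F, a tyrosine phosphatase.
IP3K2, chrX:13314493-13314753: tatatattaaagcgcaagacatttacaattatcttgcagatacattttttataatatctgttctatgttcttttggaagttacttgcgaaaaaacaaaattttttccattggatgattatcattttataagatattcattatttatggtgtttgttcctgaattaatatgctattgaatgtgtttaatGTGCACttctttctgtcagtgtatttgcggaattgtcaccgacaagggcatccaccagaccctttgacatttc
hog, chrX:14725175-14725435: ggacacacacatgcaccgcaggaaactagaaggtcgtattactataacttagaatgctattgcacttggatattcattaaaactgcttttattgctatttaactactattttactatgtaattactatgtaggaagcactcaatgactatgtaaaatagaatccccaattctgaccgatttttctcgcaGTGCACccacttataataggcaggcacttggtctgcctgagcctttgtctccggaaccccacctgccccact
CG32320, chr3L:1392028-1392288: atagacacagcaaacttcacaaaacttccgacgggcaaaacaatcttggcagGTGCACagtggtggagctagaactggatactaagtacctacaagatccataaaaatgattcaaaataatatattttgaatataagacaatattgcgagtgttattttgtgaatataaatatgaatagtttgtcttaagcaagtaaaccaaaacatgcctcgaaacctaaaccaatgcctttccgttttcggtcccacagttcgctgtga
Glut1, chr3L:964105-964365: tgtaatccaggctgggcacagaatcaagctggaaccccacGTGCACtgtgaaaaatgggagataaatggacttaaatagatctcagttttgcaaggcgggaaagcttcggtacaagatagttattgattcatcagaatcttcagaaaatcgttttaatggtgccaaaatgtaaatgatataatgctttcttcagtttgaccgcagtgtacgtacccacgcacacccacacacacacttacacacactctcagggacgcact

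The middle of GTGCAC lay 60.5 bp from the summit at IP3K2, 61.5 bp at hog, 75.5 bp near CG32320 and 87.5 bp at Glut1. In the Glut1 window the hexamer overlaps a CACGTG centred 90.5 bp from the summit. The replicate signals were 19.3, 24.6 and 31.9 at IP3K2, and 33.7, 34.8 and 39.2 at hog. They were 29.1, 20.7 and 62.1 near CG32320, and 37.1, 36.7 and 30.2 at Glut1. By rank, IP3K2 stood at 11876, 11415 and 10579 in replicates 1, 2 and 3, hog at 6395, 7855 and 8676, and Glut1 at 5836, 7427 and 11177. The member near CG32320 ranked 7337, 13600 and 5374, lowest in replicate 2.

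The 3 members with the best worst rank over the 3 replicate lists are shown with 101 bases each, because their lowest rank in any list was the best among the members. No capitals are used, because neither CACGTG nor GTGCAC lies within 100 bp of these summits. CG14662 and single-minded (sim), the bHLH-PAS master regulator of the nervous system midline, have the nearest starts of the first pair, and Nost encodes a nostrin-like protein.
CG14662, chr3R:4979298-4979398: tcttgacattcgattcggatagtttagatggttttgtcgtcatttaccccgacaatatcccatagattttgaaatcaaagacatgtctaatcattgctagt
sim, chr3R:13068160-13068260: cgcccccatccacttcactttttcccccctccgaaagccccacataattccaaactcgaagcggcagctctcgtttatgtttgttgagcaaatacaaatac
Nost, chrX:9046574-9046674: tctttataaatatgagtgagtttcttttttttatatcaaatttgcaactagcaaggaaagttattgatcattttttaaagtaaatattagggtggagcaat

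Replicate 1 stood apart from the other two, and every statement on position has to be read with that. The replicate lists held 30000, 30000 and 29999 peaks, and no read counts were used here, so depth is unknown. Over its whole list, replicate 1 had 25.4% of summits within 1 kb of the start of a protein-coding transcript (called a start below), against 40.5% in replicate 2 and 38.6% in replicate 3. The share of summits on X was 11.9% in replicate 1, 22.1% in replicate 2 and 21.8% in replicate 3. Among the 7227 strongest peaks of each list the gap was smaller, with 40.7%, 51.1% and 49.5% near a start and 17.3%, 20.8% and 19.7% on X. In replicate 3, 32 peaks lay off the 6 chromosome arms.

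The members were the stronger end of the sub-threshold peaks. The signal is the authors' deposited value of each peak against a control alignment. Their pooled signal ran from 25.2 to 110 with a median of 76.2, against medians of 35.7 in the other sub-threshold peaks and 212 in the thresholded peaks. In the pooled ranking they ran from rank 7228 to 28165, with a median of 10165. Of the members, 97.9% lay above the median of the sub-threshold signals and 1185 (41.3%) in the highest decile. The strongest member had a signal of 110.28 and the weakest thresholded peak 110.31, so the members begin just below the weakest thresholded peak. The thresholded peaks were those of pooled ranks 1 to 7227, so that list is also a cut on pooled signal. Each comparison of members with it therefore compares separate ranges of pooled signal. At the edge of the rule, the 274 peaks with a largest summit offset of 91 to 100 bp had a median signal of 73.8, and the 236 peaks just outside it, with 101 to 110 bp, had 67.7. Of these edge peaks, 25.5% inside and 30.9% outside lay within 1 kb of a start, 17.5% and 17.8% lay on X, and 5.47% and 9.32% held the hexamer GTGCAC. For the −log10 q values only ties were described, and 397 members (13.8%) carry the highest value of the thresholded list.

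In the replicate lists the members lay in the middle ranks. Their median rank was 10139 in replicate 1, 12610 in replicate 2 and 12595 in replicate 3, and their median signals were 21.6, 22.3 and 26.5. Among the first 7227 peaks of a list were 655 members in replicate 1, 242 in replicate 2 and 203 in replicate 3. Most members, 1873 (65.3%), were in none of these 3 sets, 894 were in 1, 100 were in 2, and 2 were in all 3. Those 2 have their nearest starts at CG14662 and sim. The best of a member's 3 ranks was in replicate 1 for 1432 members (49.9%), in replicate 2 for 692 and in replicate 3 for 745. The offsets from the pooled summit, which the rule caps at 100 bp, had medians of 28 bp, 19 bp and 16 bp in replicates 1, 2 and 3, and in 340 members all 3 were 20 bp or less. Each member matched a replicate peak of its own, since the 2869 members rested on 2869 distinct peaks in every replicate. The thresholded peaks are parted from the members by pooled signal, and 8 of them had no summit within 100 bp in any replicate. The following correlations thus describe the sets and do not test a difference between them. Across the 2869 members, which are peaks and not replicates, Spearman's rho of the signals of replicates 1 and 2 was 0.243. It was 0.145 for replicates 1 and 3, and 0.298 for replicates 2 and 3. Across the 5943 thresholded peaks found in all 3 replicates the values for these pairs were 0.831, 0.728 and 0.802. The members also span a narrower range of signals, and its part in these values was not tested.

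**Figure D1:**
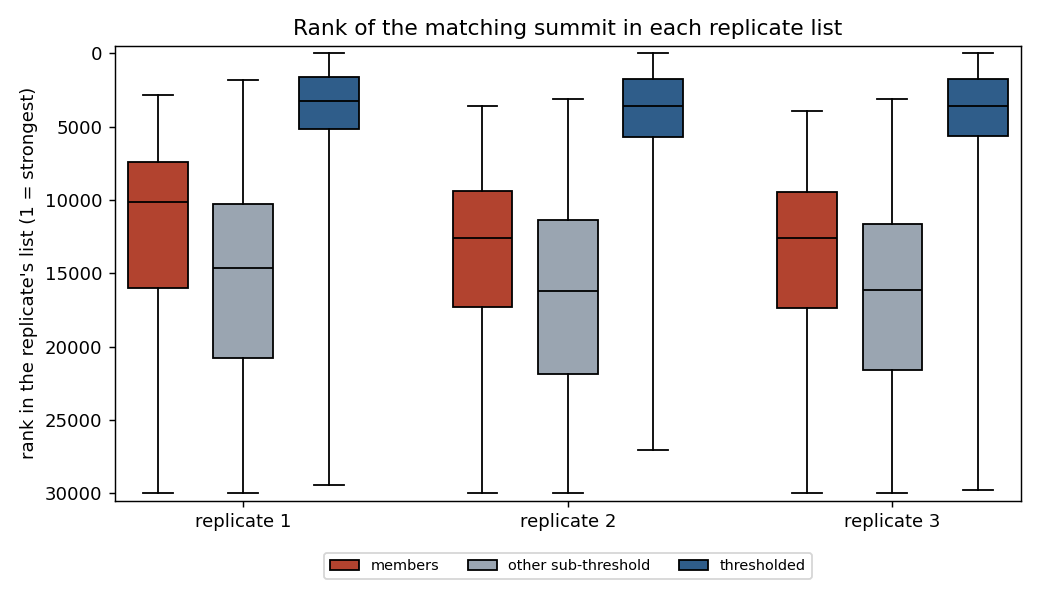
Rank of the matching replicate summit (y axis, 1 is the strongest, drawn at the top) in each of the 3 replicate lists for members, other sub-threshold peaks with a summit within 100 bp in that replicate, and thresholded peaks. Boxes span the quartiles with the median as a line, and whiskers reach the lowest and highest rank; the members' medians of 10139, 12610 and 12595 lie between those of the other groups.

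The 15 members with the best worst rank are described next, and their ranks lie close together because that choice favours it. Over all members, the gap between a member's best and worst rank had a median of 7964. At CG14662 the intergenic summit (3R, 4979348), 4884 bp from the start, had ranks of 6912, 6944 and 6859 in replicates 1, 2 and 3, with signals of 31.0, 39.0 and 49.3. The summit in the sim intron (3R, 13068210) had ranks of 7076, 5952 and 6704, with signals of 30.2, 44.9 and 50.3. Its offsets of 99, 15 and 97 bp put it just inside the distance rule in replicates 1 and 3. At Nost (X, 9046624) the ranks were 6084, 7466 and 7178 and all offsets were 10 bp or less. These 3 lay far from starts, and so did the members nearest to Pos, 5303 bp from its start, and CG42749, 10058 bp from its start.

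Others of the 15 lay at starts or in introns of other genes. The member at Ncoa6, a nuclear receptor coactivator, lay 152 bp from the start and had ranks of 7446, 7679 and 5101. At Gnpat, an enzyme of ether lipid synthesis, the summit lay 2 bp from the start, with ranks of 6887, 7709 and 7845, although its pooled signal was only 60.7. Starts also lay within 1 kb for CG9410, at 126 bp, and CG6028, at 64 bp. Introns of their own nearest gene held the members at psq, a BTB transcription factor, dnt, a receptor of the Ryk family, and Cpr97Ea, a cuticle protein gene. The member with Prosbeta2, a proteasome subunit gene, as its nearest start lay 6066 bp away in an intron of Reck. Likewise the one nearest to PNPase lay in an intron of Gprk2, a G protein-coupled receptor kinase gene, and the one nearest to Ypel in an intron of CG43902. None of these 15 had CACGTG or GTGCAC within 100 bp of the summit.

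By position, members lay less often at gene starts than either other set of peaks. Each summit was put in the first of 6 classes that fitted it. These were within 1 kb of a start, then the exon classes (5' UTR, coding and 3' UTR), then introns, then the rest as intergenic. Of the members, 770 (26.8%, exact 95% interval 25.2 to 28.5%) lay within 1 kb of a start, against 31.9% of the other sub-threshold peaks (odds ratio 0.784, 0.718 to 0.856, adjusted p = 9.19e-08, two-sided Fisher's exact test). Against the 47.9% of the thresholded peaks the odds ratio was 0.399 (0.363 to 0.439, adjusted exact p = 3.41e-85). In each of these families, 5 of the 6 classes passed the adjusted threshold of 0.05 (83.3%). The p-values measure counting over peaks, not the spread between animals. They treat peaks as independent, and 14 members lay within 500 bp of a stronger member.

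The difference from the other sub-threshold peaks rested on replicate 1. When a peak needed a summit only in replicates 2 and 3, the 6892 peaks chosen had 38.7% near a start against 27.5% in the rest, and the odds ratio turned to 1.66 (adjusted exact p = 3.86e-59). Without replicate 2 it was 0.707 and without replicate 3 it was 0.756. Against the thresholded peaks the odds ratio of 0.399 became 0.688 without replicate 1 (adjusted exact p = 3.46e-27), still below 1. Sorting the sub-threshold peaks by the replicates that held them gave the same picture. The 4023 peaks found in replicates 2 and 3 but not in 1 had 47.2% near a start (45.7 to 48.8%), a share close to that of the thresholded list. Peaks of replicates 1 and 3 only had 23.0%, of 1 and 2 only 25.9%, and of 1 only 16.6%. Peaks found in replicate 2 only or in replicate 3 only had 36.5% and 32.4%. The 2576 peaks found in no replicate had 26.2% (24.5 to 27.9%), close to the 26.8% of the members. Among thresholded peaks, too, the 771 found in replicates 2 and 3 only had the larger share, 73.9%, against 44.1% of those found in all 3.

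**Figure D2:**
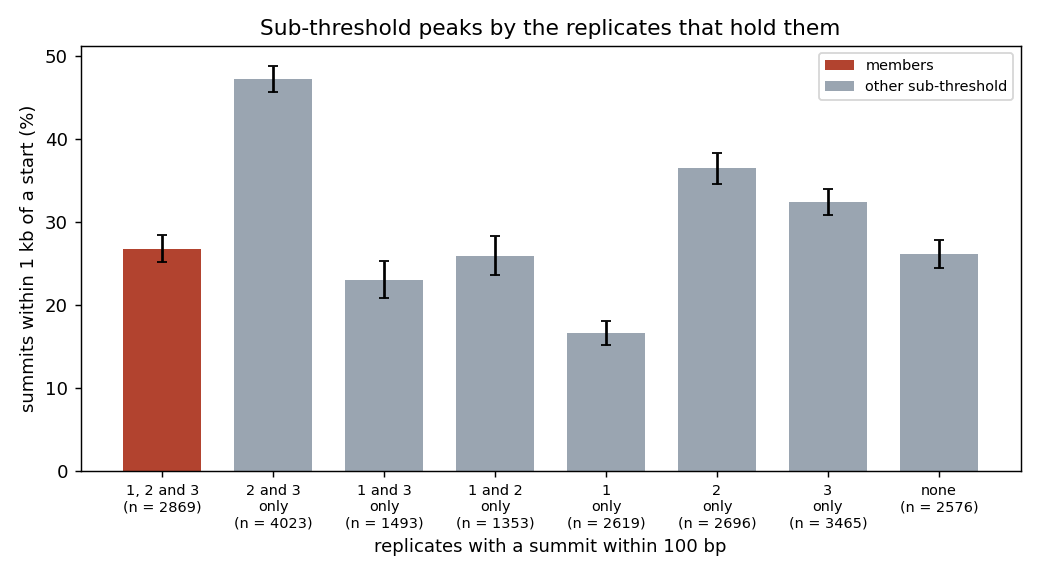
Share of sub-threshold summits within 1 kb of a start (y axis, percent, with exact 95% intervals as error bars) by which replicates had a summit within 100 bp (x axis, with the number of peaks). Members have 26.8%, and the peaks found in replicates 2 and 3 but not in replicate 1 stand highest, at 47.2%.

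In the strongest deciles of pooled signal the gap to the other sub-threshold peaks was wider than over all peaks. In the strongest decile of the sub-threshold peaks, with signals of 82.1 to 110, 30.0% of 1185 members lay near a start (27.4 to 32.7%), against 57.8% of 925 others (54.6 to 61.0%). In the second decile the shares were 27.7% of 792 members and 47.8% of 1317 others, and in the third 22.9% of 503 members and 41.3% of 1606 others. In the fourth they were 18.6% and 34.8%. In the fifth, 27.2% of only 92 members lay near a start (18.4 to 37.4%), against 31.2% of 2017 others (29.2 to 33.3%), so the intervals overlapped there. Stratified over the 10 bins of pooled signal, the odds ratio was 0.399, against 0.784 unstratified. By the rule, each of the other sub-threshold peaks lacks a nearby summit in at least 1 replicate. Over all deciles, 4023 of the 18225 others lacked one in replicate 1 alone, and their median pooled signal was 49.9. They were not counted by decile, and their part in the wider gap was not tested.

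**Figure D3:**
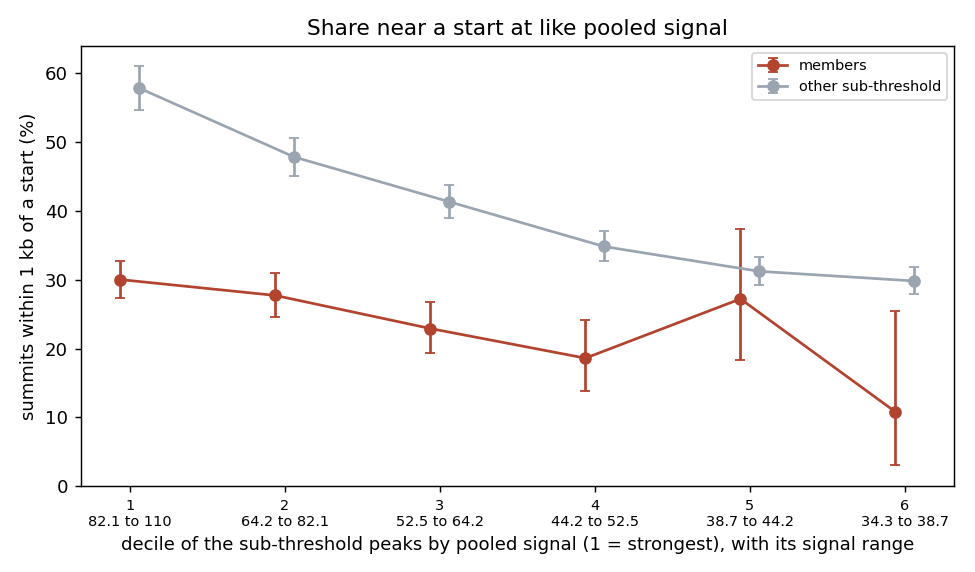
Share of summits within 1 kb of a start (y axis, percent, exact 95% intervals) for members and other sub-threshold peaks by decile of pooled signal (x axis, strongest decile first; deciles with under 20 members are left out). The share of members is 30.0% in the strongest decile, where the others have 57.8%.

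The rest of the members lay mostly in introns and between genes. Introns over 1 kb from a start held 1242 members (43.3%), against 37.3% of the other sub-threshold peaks (odds ratio 1.28, adjusted p = 4.58e-09) and 32.5% of the thresholded peaks (1.59, adjusted p = 1.43e-23, both Fisher's exact test). Intergenic sequence held 793 members (27.6%), against 24.7% of the others (1.17, adjusted exact p = 0.000937) and 18.7% of the thresholded peaks (1.66, adjusted p = 3.79e-22). Both differences from the other sub-threshold peaks reversed without replicate 1, at odds ratios of 0.908 for introns and 0.739 for intergenic sequence. The intergenic difference was also lost at a distance of 50 bp (1.13, adjusted exact p = 0.0607). Since the classes share 1 total, a smaller share near starts raises the others. Among summits over 1 kb from a start, introns held 59.2% in members, 54.8% in other sub-threshold peaks and 62.4% in thresholded peaks.

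Exons held few members. Coding exons away from starts held 16 members (0.558%), against 2.92% of the other sub-threshold peaks (odds ratio 0.187, 0.113 to 0.307, adjusted exact p = 3.46e-17) and 0.0969% of the thresholded peaks (5.78, 2.38 to 14.1, adjusted p = 7.45e-05). The members thus lay between these sets. Against the others the odds ratio was 0.300 without replicate 1, 0.288 without replicate 2 and 0.493 without replicate 3, and at a distance of 50 bp it was 0.102. The difference from the thresholded peaks was lost at 50 bp (2.98, adjusted exact p = 0.103), and the odds ratio was 10.7, 9.31 and 15.1 without replicates 1, 2 and 3. By the number of supporting replicates, from none to 3, the share of sub-threshold peaks in coding exons was 4.85%, 3.23%, 1.79% and 0.558%. Stratified by pooled signal, the odds ratio against the others was 1.11 (adjusted p = 0.942, Cochran-Mantel-Haenszel chi-square test), so at like signal no difference was detected. The 3' UTR exons followed the same order, with 1.36% of members, 2.72% of the others and 0.678% of thresholded peaks. There, too, the odds ratio against the others was 0.493 unstratified and 1.03 when stratified by signal.

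**Figure D4:**
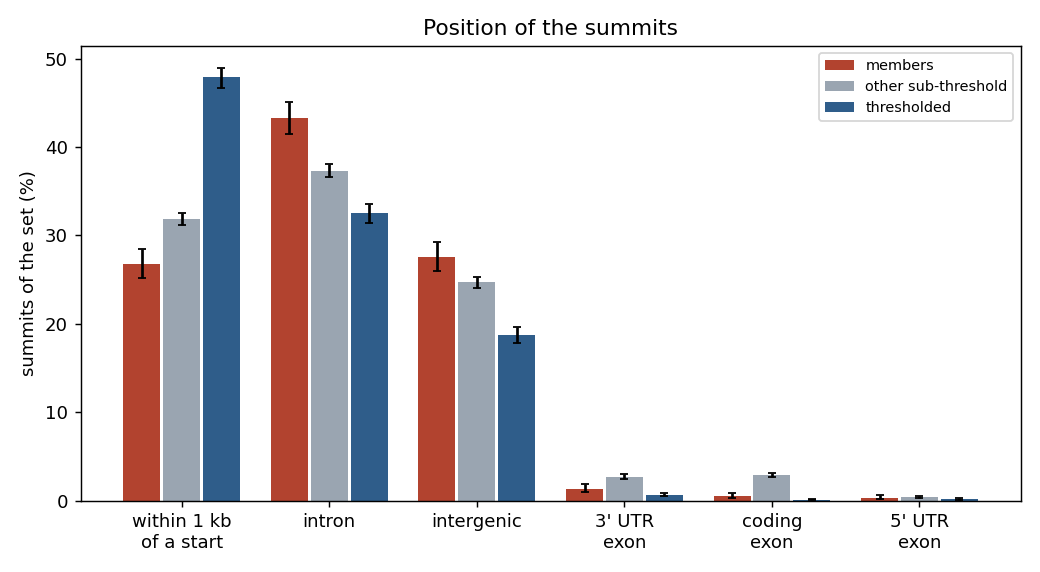
Share of summits (y axis, percent, with exact 95% intervals) in each position class (x axis) for members, other sub-threshold peaks and thresholded peaks. Members have the smallest share near starts, 26.8%, and the largest in introns, 43.3%, and between genes, 27.6%.

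The strongest member of each class ranked close to the threshold in all but 1 class. Between genes it lay near betaGlu (3R, 31768400), with replicate signals of 23.5, 50.5 and 41.5. In an intron it lay in Orp8, an oxysterol-binding protein gene (3R, 20310935), with 40.3, 38.8 and 33.4. Near a start it was the member at CG6028 (3R, 22025570), with 26.6, 38.1 and 60.6. In a 5' UTR exon it lay in gce, a bHLH-PAS receptor of juvenile hormone (X, 15306387), with 16.6, 39.4 and 42.1. In a 3' UTR exon it lay in RSG7, a regulator of G protein signalling (X, 16840116), with 37.0, 30.0 and 40.5. In a coding exon the strongest member lay in scrib, a cell polarity gene (3R, 26567048), at a pooled signal of 96.4 and with 42.6, 31.4 and 20.6. The Orp8 and scrib members were highest in replicate 1, and betaGlu in replicate 2.

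Members were spread over the arms in nearly the proportions of the other peaks. X held 647 members (22.6%, 21.0 to 24.1%), against 19.4% of the other sub-threshold peaks (odds ratio 1.21, 1.10 to 1.33, adjusted p = 0.000560, Fisher's exact test over 6 arms) and 19.6% of the thresholded peaks (1.19, adjusted p = 0.00681). The odds ratio was 1.57 without replicate 1. The difference was lost without replicate 2 (odds ratio 1.01, adjusted exact p = 0.965) and without replicate 3 (0.994, adjusted p = 0.967), and with a distance of 200 bp (1.04, adjusted p = 0.358). It was also lost in strata of pooled signal (1.14, adjusted p = 0.104, Cochran-Mantel-Haenszel chi-square test). Against the thresholded peaks the X difference was likewise no longer past the threshold when replicate 2 was left out (odds ratio 1.02, adjusted exact p = 0.736), when replicate 3 was left out (1.01, adjusted p = 0.909), at 200 bp (1.04, adjusted p = 0.560) and among members with no thresholded summit within 1 kb (1.15, adjusted p = 0.0563). Peaks found in replicates 2 and 3 only had 26.5% on X, and those of replicate 1 only had 8.09%. Chromosome 4 held 19 members (0.662%), against 1.28% of the other sub-threshold peaks (odds ratio 0.513, adjusted exact p = 0.00915). That difference was no longer past the threshold at a distance of 50 bp or at like signal. Of the 6 arms, 2 passed against the other sub-threshold peaks (33.3%) and 1 against the thresholded peaks (16.7%).

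For sequence, the 100 bp on each side of a summit were searched for 19 motifs, on either strand. The E-box CACGTG was rare and did not set the members apart. It lay in 46 members (1.60%, 1.18 to 2.13%), against 1.98% of the other sub-threshold peaks (odds ratio 0.809, 0.593 to 1.10, adjusted p = 0.512, Fisher's exact test) and 1.63% of the thresholded peaks (0.982, 0.696 to 1.38, adjusted p = 1.00). Of 664860 windows of 201 bp that tile the arms, 2.36% held it. These intervals allow modest differences in either direction. The windows shown above for aralar1, Tbh, Dif, SrpRbeta and Tet are thus the exceptions, and only 11 members had CACGTG within 30 bp of the summit. Of the other E-box hexamers searched, CAGCTG lay in 7.39% of members, CATATG in 7.53%, CAATTG in 8.64%, CACATG in 8.64%, CAAGTG in 13.2% and CAAATG in 20.2%. None passed the test against either set. The same held for GAGAGA, at 8.89% of members, the Zelda site CAGGTAG at 0.767%, GATAAG at 10.1%, the nuclear receptor site AGGTCA at 3.87%, TGANTCA of AP-1 at 5.09% and CGCGCG at 1.32%.

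Against the other sub-threshold peaks 4 of the 19 motifs passed (21.1%). GTGCAC lay in 224 members (7.81%, 6.85 to 8.85%), against 5.81% of the other sub-threshold peaks (odds ratio 1.37, 1.18 to 1.60, adjusted p = 0.000335, Fisher's exact test), 8.36% of the thresholded peaks and 4.13% of the tiled windows. The run AAAAAA lay in 48.9% of members against 41.6% of the others (1.34, adjusted exact p = 5.53e-12), and TATAAA, the TATA box core, in 34.4% against 30.0% (1.22, adjusted p = 2.61e-05). GGCGCC was lower, at 2.09% against 2.95% (0.702, adjusted exact p = 0.0435). Of the tiled windows, 31.5% held AAAAAA, 21.8% TATAAA and 3.09% GGCGCC. The median GC content of the windows was 35.8% in members, 37.8% in other sub-threshold peaks and 34.3% in thresholded peaks. Stratified by GC content, with Cochran-Mantel-Haenszel chi-square tests, the odds ratios were 1.36 for GTGCAC (adjusted p = 0.00110), 1.13 for AAAAAA (adjusted p = 0.0244), 1.01 for TATAAA and 0.939 for GGCGCC. In strata of pooled signal none of the 4 passed this chi-square test, with 1.16 for GTGCAC (adjusted p = 0.227), 1.10 for AAAAAA, 1.11 for TATAAA and 0.696 for GGCGCC. Without replicate 1 GTGCAC stood at 1.07 against the other sub-threshold peaks (adjusted exact p = 0.468). Against the thresholded peaks it was at 0.929 (adjusted exact p = 0.596), and without replicate 1 it passed, at 0.741 (adjusted p = 3.57e-05). TATAAA was lost without replicate 3 (1.00, adjusted exact p = 1.00) and at a distance of 50 bp (1.14, adjusted p = 0.204). GGCGCC no longer passed when replicate 1 was left out (0.981, adjusted exact p = 0.880) or replicate 3 (0.778, adjusted p = 0.112).

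The windows for IP3K2, hog, CG32320 and Glut1 were chosen with GTGCAC to the side of the summit, so they do not bear on its position. Over the members GTGCAC lay more often to the side of the summit than at it. Between 60 and 120 bp from the summit it was found in 167 members (5.82%), against 3.84% of the other sub-threshold peaks and 6.79% of the thresholded peaks. Per 10 bp of distance that is 0.970% of members. Within 30 bp of the summit it was 0.534% of members per 10 bp, and between 400 and 460 bp it was 0.401%. The other sub-threshold peaks had 0.639% per 10 bp at 60 to 120 bp and 0.565% within 30 bp. The thresholded peaks had 1.13% and 0.466% at the same distances. With windows of 50 bp on each side the odds ratio against the other sub-threshold peaks was accordingly lower, at 1.11 (adjusted exact p = 0.586), and with 200 bp it was 1.42 (adjusted p = 9.34e-08). These distances were chosen after the profile was seen and were not tested. CACGTG and GTGCAC occurred together in 8 members and overlapped in 2 of them.

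Against the thresholded peaks only 1 of the 19 motifs passed (5.26%). TATCGATA, the core of the DNA replication-related element bound by Dref, lay in 54 members (1.88%), against 3.32% of the thresholded peaks (odds ratio 0.558, 0.414 to 0.753, adjusted p = 0.00145, Fisher's exact test). It is a motif of housekeeping promoters, and within the members its share was 4.81% near a start and 0.810% elsewhere. Among thresholded peaks the shares were 6.41% and 0.478%, and 0.564% of the tiled windows held it. For summits over 1 kb from a start the odds ratio was 1.70 (adjusted exact p = 0.400). The difference was also lost without replicate 1 (0.924, adjusted exact p = 0.639) and in windows of 50 bp on each side (0.722, adjusted p = 0.447). GGTCACAC, the core of promoter Motif 1, showed the same split within the members, with 2.99% near a start and 0.524% elsewhere. GTGCAC went the other way, with 6.36% of members near a start and 8.34% of those farther away. These splits were not particular to the members. GTGCAC had 4.53% and 6.40% in other sub-threshold peaks and 6.30% and 10.2% in thresholded peaks. For GGTCACAC the shares were 3.67% and 0.274% in other sub-threshold peaks and 3.52% and 0.531% in thresholded peaks.

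Most core clock genes, like most protein-coding genes, had no member close to a start. Of the 8 core clock genes, 2 had a member within 1 kb of a start, beside 873 of all 13945 protein-coding genes (6.26%). At cwo, the bHLH-Orange repressor of Clk and Cyc targets (3R, 10388258 to 10400752), the summit lay 984 bp from a start. Its signals were 23.0, 30.2 and 26.8 in replicates 1, 2 and 3, and the nearest thresholded summit lay 23675 bp from a start of cwo. At Pdp1, a bZIP activator of Clk (3L, 7811458 to 7867369), a member lay 331 bp from a start with signals of 16.1, 32.2 and 10.8. A second member, 377 bp from the start, ranked 24472, 18871 and 13611 in the 3 lists. The first was highest in replicate 2 and the second in replicate 3, and Pdp1 also had a thresholded summit 472 bp from a start.

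The other 6 clock genes had no member near a start. The bZIP repressor gene vri (2L, 5288944 to 5311223) held 2 members in its body, the nearer one 2561 bp from a start with signals of 23.3, 24.1 and 46.9. The nearest member lay 24615 bp from a start of Clk, with signals of 15.1, 13.2 and 11.6, and 84958 bp from cyc. For tim, the light-sensitive partner of Per, it lay 24973 bp away, with 24.0, 28.5 and 16.4. For cry, the blue-light photoreceptor gene, it lay 14533 bp away, with 16.6, 52.1 and 44.7. Thresholded summits did lie near starts of vri and cry, at 223 and 230 bp, with pooled signals of 242 and 408. The nearest thresholded summit lay 7950 bp from a start of Clk, 2039 bp from cyc, 18306 bp from per and 25251 bp from tim. The member nearest to per, 25956 bp away, was the one at a start of sgg. That summit (X, 2659624) lay 858 bp from the sgg start and had signals of 25.1, 38.2 and 34.9. The kinase Sgg phosphorylates Tim. Of 13 matched kinase, phosphatase and degradation genes of the clock, 2 (15.4%) had a member near a start, beside 6.26% of all protein-coding genes. Besides sgg this was Cul3, a ubiquitin ligase gene, with 31.8, 17.3 and 35.1. Thresholded summits lay near starts of 9 of these 13 genes (69.2%), among them sgg but not Cul3. The share for all protein-coding genes was 28.6%.

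Among regulators of metamorphosis, 3 of 21 matched ecdysone response genes (14.3%) had a member within 1 kb of a start, beside 6.26% of all protein-coding genes. The strongest lay at br, a zinc finger gene of the prepupal response (X, 1613348, 309 bp from a start), with signals of 24.2, 41.0 and 44.5. The ecdysone receptor gene EcR had 41.0, 28.5 and 11.0, so its summit was at rank 5323 in replicate 1 and 28524 in replicate 3. The nuclear receptor gene Hr39 had 11.6, 26.4 and 31.5, and it was the only one of the 3 whose starts had no thresholded summit within 1 kb. Among 9 bHLH-PAS factors and co-activators only nej (11.1%), the CBP acetyltransferase gene, had a member, with 12.3, 9.95 and 35.3. Of the 24 neuropeptide and output genes only na (4.17%), a sodium leak channel gene, had one, with 11.6, 10.6 and 17.7.

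In the signalling pathways members lay at genes of several steps. Of all 873 genes with a member near a start, 575 had no thresholded summit within 1 kb of any of their starts, so lacking one is the more common case. Of 18 Wnt pathway genes, 4 had a member near a start and none of these had a thresholded summit there. Apc, of the complex that degrades beta-catenin, had signals of 17.2, 50.6 and 41.7 at a summit 50 bp from the start. The co-receptor gene arr had 40.6, 29.2 and 16.0, the receptor gene fz2 had 15.7, 42.9 and 33.3, and pan, the TCF factor, had 26.5, 15.9 and 29.9. The replicates ordered these genes differently, with Apc and fz2 low in replicate 1 and arr highest there. All 3 hits among 17 EGF receptor pathway genes likewise lacked a thresholded summit near a start. Egfr had 18.9, 23.3 and 52.0, ru, a rhomboid protease gene, had 23.9, 23.0 and 45.5, and kek1, an inhibitor of the receptor, had 21.6, 32.5 and 36.8. Of 14 Dpp pathway genes, 3 had a member, namely shn, a zinc finger cofactor gene, put, the type II receptor gene, and tok, a tolloid-like protease gene, with 43.1, 24.3 and 26.9 at shn. In the Hippo pathway 2 of 15 genes had one, mats and Diap1, and in the insulin and TOR list 2 of 20, Pi3K92E and S6k. None of 16 matched Notch pathway genes and none of 8 Hox genes had a member near a start. The Notch ligand gene Dl had no match by symbol and was not searched. The highest of these shares was 22.2%, in the Wnt list, beside 6.26% of all protein-coding genes. With 8 to 20 genes per list, a count of none says little, and the shares were not tested.

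Of 28 neuronal and synaptic genes, 5 had a member near a start (17.9%, beside 6.26% of all genes), and 4 of those had no thresholded summit near a start. The RNA-binding protein genes Rbp9 and fne, of the Elav family, had signals of 33.6, 33.9 and 41.4 and of 17.1, 22.2 and 68.2. The dopamine pathway genes ple (tyrosine hydroxylase) and Ddc (dopa decarboxylase) had 31.2, 29.2 and 19.3 and 18.5, 36.1 and 34.8. The synaptic vesicle gene Syt1 had 32.8, 23.3 and 21.3. Rbp9 was even across the lists, while fne was clearly highest in replicate 3. Of 30 disc selector genes 3 had a member, Dll, salm and bab2, each without a thresholded summit near a start. Dll, the leg selector, had 20.3, 39.2 and 30.1, whereas salm had 19.0, 9.88 and 13.0. In muscle genes 2 of 21 (9.52%) had one, Tm1, with its summit within l(3)neo43, and Act87E, and none of 16 salivary glue genes did.

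**Figure D5:**
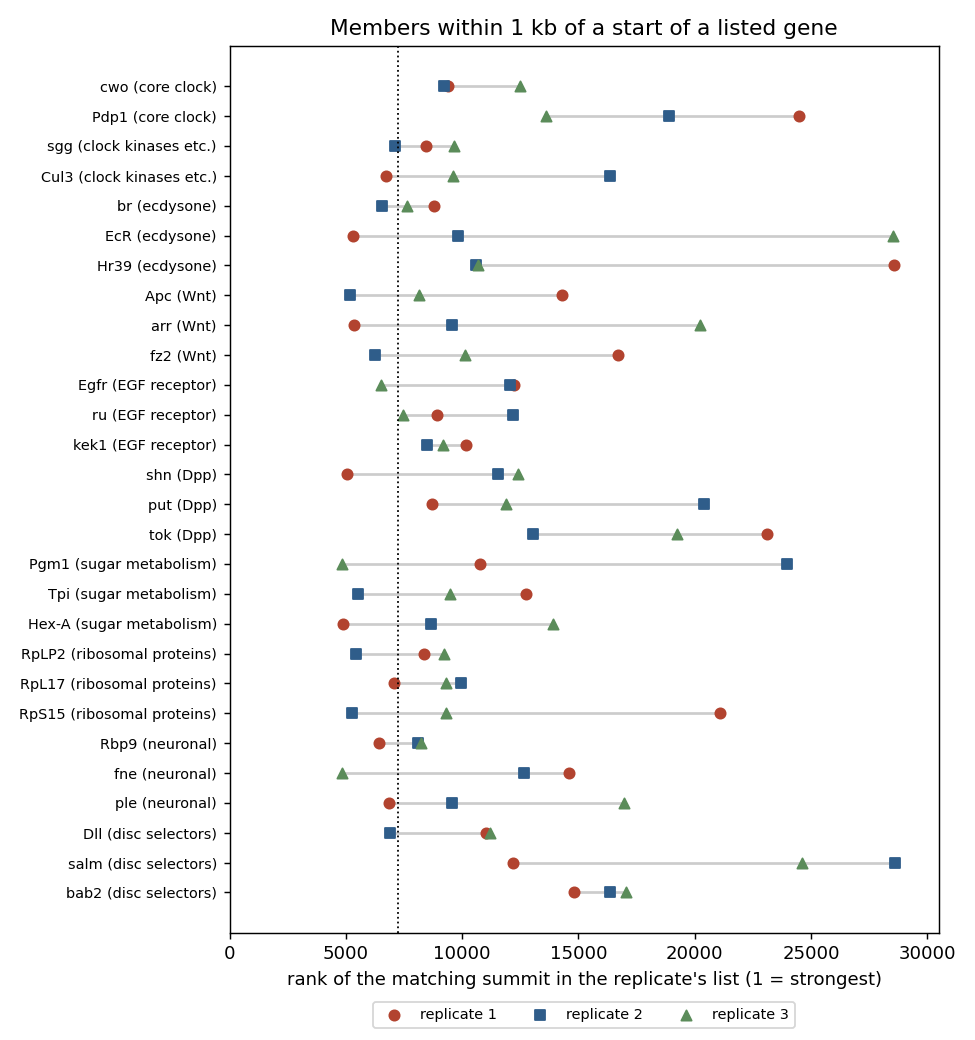
Rank of the matching summit in each replicate list (x axis, 1 is the strongest; circles replicate 1, squares replicate 2, triangles replicate 3) for members within 1 kb of a start of genes in 10 of the lists, with a grey line from the best to the worst rank. The dotted line marks rank 7227; the 3 ranks of a member are often far apart, as at EcR, with 5323 in replicate 1 and 28524 in replicate 3.

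Among ribosomal protein, proteasome and sugar metabolism genes the shares with a member ran from 1.37 to 31.2% by list. Of 85 cytosolic ribosomal protein genes, 11 (12.9%) had a member near a start, and 5 of these had no thresholded summit there. RpLP2 had signals of 25.4, 48.6 and 36.6, RpL17 had 30.2, 28.0 and 36.2, and RpS15 had 13.9, 50.2 and 36.3. Of 73 mitochondrial ribosomal protein genes only mRpL50 had one (1.37%), with 30.3, 29.7 and 38.8, and of 48 proteasome subunit genes only Prosbeta3 (2.08%), with 17.8, 29.8 and 26.1. Among 16 genes of glycolysis and sugar metabolism, 5 (31.2%) had a member. These were Pgm1 (phosphoglucomutase), Tpi (triose phosphate isomerase), Hex-A (hexokinase), Pgk (phosphoglycerate kinase) and Ald1 (aldolase). Tpi and Ald1 lacked a thresholded summit near a start, with 18.5, 48.2 and 35.5 at Tpi and 15.4, 20.1 and 40.4 at Ald1. The summit at Tpi lay within another gene, AdoR. Pgm1 was at 20.6, 11.8 and 68.1, so it ranked 4838 in replicate 3 and 23947 in replicate 2. None of 27 heat shock and chaperone genes had a member near a start, and none of 5 matched Myc network genes did. Of 20 autophagy genes, 2 had a member, Atg16 and Atg1, and of 17 cell cycle genes only Cdk2 did. In the list of GATA factors, ush and cbt, 1 of 7 genes had a member, namely cbt. Of the genes with a member in these lists, only cbt also had a thresholded summit near a start. The lists were not tested, and their shares stand beside the 6.26% of all genes only as a description.

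In large families of sensory, cuticle and cytochrome P450 genes the shares ran from 2.13 to 7.84%, beside 6.26% of all protein-coding genes. Of 179 odorant, gustatory and ionotropic receptor genes, 4 had a member (2.23%), Ir67c, Gr77a, Ir60a and Ir85a, and none of these had a thresholded summit near a start. Thresholded summits were rare in that list as a whole, near starts of 2.23% of its genes against 28.6% of all protein-coding genes. Ir67c was the strongest, with 42.5, 29.0 and 33.5. Of 51 odorant-binding protein genes, 4 had one (7.84%), Obp99b, Obp99c, Obp18a and Obp83cd. Of 141 cuticle protein and Osiris genes, 3 had one (2.13%), Cpr64Aa, Cpr49Ah and Cpr12A, and of 81 cytochrome P450 genes 2 (2.47%), Cyp6t1 and Cyp313b1. Some of these summits lay within other genes, that at Gr77a in CG13252, that at Ir60a in nord, that at Obp18a in RhoGAP18B and that at Cpr64Aa in CG43367. Cyp6t1 had 26.4, 31.9 and 49.5.

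By the rule, members overlapped no thresholded peak. The median distance to the nearest thresholded summit was 3566 bp in members and 4828 bp in other sub-threshold peaks, and 2405 members (83.8%) lay over 1 kb away from one. In the dm3 version of the same lists the rule found 2835 members, and coordinates from that version were not used.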

How the data were processed

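The authors deposited narrowPeak lists for each replicate, for the replicates pooled and for the pooled list after an IDR threshold, per the texts that accompany the files. The signal of a peak is the authors' value against a shared control alignment, which was not analysed here. The −log10 q value was deposited with each peak and was used only to describe ties. No aligner or peak caller is named in the sources used here. The lists hold no read counts, so depth is unknown.

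Members were found by the distance rule given above, with ranks by signal within each list. The replicate signal of a member is that of the replicate peak nearest by summit. Any overlap of 1 bp or more with a thresholded peak left a peak out. Starts, exons and introns came from protein-coding genes of Ensembl release 115 (build BDGP 6.54), which uses dm6 coordinates, and sequence came from NCBI RefSeq Release 6. All pooled peaks ended within the arms. Shares were compared with two-sided Fisher's exact tests, Benjamini-Hochberg adjusted over 6 location classes, 6 arms or 19 motifs, with a threshold of 0.05. Odds ratios have Woolf 95% intervals and shares have exact Clopper-Pearson intervals, which cover counting error only. Stratified values are Mantel-Haenszel odds ratios over 10 bins of pooled signal or over GC bins of 5 percentage points.

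The members, motifs and 29 gene lists were chosen with earlier results of these data known, so no list was tested. Spellings and membership of the lists were corrected after the files were read, and 8 listed symbols had no match. The genes named were all 8 core clock genes, those nearest to the 15 members with the best worst rank, up to 3 per other list, those nearest to the 5 members with CACGTG closest to the summit, and the strongest member of each class. Further genes were named after their values were seen, where a list had 5 or fewer hits, and so were the host genes in the closing section. The tests were checked on simulated data. Python 3.11.15, numpy 2.4.6, pandas 2.3.3, scipy 1.17.1, statsmodels 0.14.6 and matplotlib 3.10.9 were used.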

Additional observations from a re-analysis of the deposited data

How the results depend on the processing

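Alternatives covered the summit distance, the replicates required, neighbouring summits, pooled signal, GC content and the windows around starts and summits. Of 253 values over 23 results and 16 settings, 187 kept their direction and side of the threshold or stayed within 1.5 times, 36 lost the threshold, 1 gained it, 18 reversed and 11 counts moved. The number of members was 1387 at 50 bp and 4325 at 200 bp, against 2869. Leaving out a replicate gave 4222 to 6892 members. The odds ratio near starts against the other sub-threshold peaks then ran from 0.707 to 1.66, reversed only without replicate 1, and those of introns and intergenic sequence from 0.908 to 1.30 and from 0.739 to 1.28, each lowest and below 1 without replicate 1. The odds ratio of X, 1.21, was 1.04 at 200 bp, 1.14 in strata of signal and 0.994 to 1.57 without a replicate. The number of motifs past the threshold was 2 at 50 bp, at motif windows of 50 and 200 bp and in strata of signal or GC, and 2 to 9 without a replicate. For CACGTG, never past the threshold, the odds ratio against thresholded peaks was 1.01 at 200 bp, 1.36 and 1.04 in windows of 50 and 200 bp, 1.34 away from starts and 1.10 to 1.15 without a replicate. Against the other sub-threshold peaks it was 1.08 in the 200 bp window. GTGCAC against thresholded peaks was 1.03 at 50 bp and 1.09 and 1.00 in the 50 and 200 bp windows, none past the threshold, and passed only without replicate 1, at 0.741. The odds ratio near starts against thresholded peaks was 0.688 without replicate 1. TATCGATA was 1.70 away from starts and 0.924 without replicate 1. In signal strata coding exons were at 1.11 and 3' UTR exons at 1.03. Except where the report gives a value, the cause was not tested. No paired analysis was possible because all 3 replicates belong to 1 group.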

Other observations

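Long genes held several members each, counted over gene bodies and not tested. Of all 13945 protein-coding genes, 1051 held at least 1 member, 188 held 3 or more and 52 held 5 or more. The adhesion gene kirre (X, 2740384 to 3134532), which works in muscle fusion, held 19 members beside 64 other sub-threshold and 33 thresholded summits over 394.1 kb. CG43658 (X, 17456169 to 17561180) held 15 members, 27 other sub-threshold and 16 thresholded summits over 105.0 kb. That was 14.3 members per 100 kb against 4.82 in kirre. The homeobox gene hth (3R, 10507561 to 10639568), a partner of Hox proteins, held 12 members, 39 other sub-threshold and 10 thresholded summits. SKIP, the teneurin gene Ten-a and Tet each held 11, beside 33, 30 and 28 other sub-threshold and 13, 11 and 17 thresholded summits. The Wnt receptor genes fz and fz2 held 10 and 8, beside 26 and 24 other sub-threshold and 8 and 9 thresholded summits. Each of the genes named here held more other sub-threshold summits than members, so holding several summits is not particular to the members. These genes were chosen after their values were seen.

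Starts of genes that encode no protein were near few members. Of the 2099 members over 1 kb from a protein-coding start, 101 (4.81%) lay within 1 kb of the start of an annotated ncRNA gene, against 5.55% of the other sub-threshold and 7.36% of the thresholded summits. For tRNA genes it was 8 members (0.381%), against 0.789% and 0.451%. Annotated transposable elements had a start near 80 members (3.81%), against 4.54% and 2.28%. No test was made of these shares.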
